A study of Mus musculus with 12 samples.

Results

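The collagen genes were taken as every entry of the deposited count table whose symbol is Col, a type number, the letter a and a chain number. This gave 44 genes of 30154, and all 44 passed the filter on low counts that kept 15890 genes for testing. They were described by type: 8 fibrillar genes (Col1a1, Col1a2, Col2a1, Col3a1, Col11a1, Col11a2, Col24a1 and Col27a1), 3 Col5 genes, 6 Col6 genes, 6 Col4 genes, the pair Col15a1 and Col18a1, 9 fibril-associated genes, 4 transmembrane genes and 6 others.

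RNA was measured in 12 libraries from muscle stem cells, the Pax7-expressing precursors that rebuild muscle fibres, sorted by flow cytometry from hind limb muscle (tibialis anterior, gastrocnemius and quadriceps) of C57BL/6J mice aged 2 to 3 months. Each of 6 groups held 2 libraries: wild type and Sestrin1,2 knockout, each without injury (day 0) and at 7 and 21 days after it. Sestrins are stress-induced proteins that restrain growth signalling through mTORC1. Strain, age, muscles, sorting and library kit (SMART-Seq v4 with Nextera XT, 76-base reads) were shared by all groups. The labels do not give the kind of injury, how the knockout was made, or whether the 2 libraries of a group came from separate animals, so p-values measure the spread between these libraries, which may be technical.

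Estimated counts summed to 28396862 to 38950614 per library. Levels are given in TPM, which corrects for transcript length and depth, and wherever pairs of values are joined by "against" the wild-type libraries come before the knockout libraries. The targeted genes were Sesn1 and Sesn2. Sesn1 was at 31.4 and 30.6 against 20.9 and 21.1 TPM at day 0 (-0.60 ± 0.28, edgeR adjusted p = 0.144), 45.3 and 37.1 against 13.4 and 10.5 at day 7 (-1.58 ± 0.29, edgeR adjusted p = 0.0301), and 18.5 and 39.9 against 19.3 and 34.9 by label at day 21. Its transcript was still counted in every knockout library. Sesn2 was at 27.6 and 30.7 against 2.10 and 2.65 TPM at day 0 (-3.68 ± 1.22, edgeR adjusted p = 0.0580) and 19.1 and 20.5 against 0.984 and 0.791 at day 7 (-4.42 ± 1.31, edgeR adjusted p = 0.170). Neither of these 2 differences passed the test, although the knockout libraries lay below the wild-type libraries on both days. The test takes its spread from all 12 libraries, including the day 21 libraries given next. By label Sesn2 was at 3.37 and 34.1 against 3.87 and 45.7 TPM at day 21. The first library called wild type and the second called knockout thus went against their labels by Sesn2 at that day. In Sesn1 the same libraries were the lowest and the second highest of the 4. Day 21 is therefore given mainly as the mean of all 4 libraries, and genotype there only by label, also without those 2. All 10 muscle stem cell markers were detected in every library (summed 594 to 1515 TPM, Pax7 3.14 to 19.2). The libraries also held RNA of fibro-adipogenic markers (11 genes, summed 5079.9 to 13891 TPM, with decorin, Dcn, at 2388 to 8071), tenocyte markers (6 genes, 2061 to 6131), mural markers (7 genes, 2151 to 7657, mostly Acta2) and glial markers (5 genes, 235 to 2120.1). Endothelial markers (8 genes) summed to 50.5 to 150.0 TPM, and of 7 immune markers analysed Lyz2 carried most of the sum, while Ptprc lay at 0 to 3.48 and Cd3e at 0 to 0.200 TPM.

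Collagens are matrix proteins whose chains wind around each other into rope-like helices. Fibrillar collagens form the cables of tendon, skin and scar; type IV collagen forms the sheet of the basement membrane that encloses each muscle fibre and its stem cell; and type VI collagen forms beaded filaments next to that sheet. In muscle, fibroblast-like cells make most fibrillar collagen after injury, and type V and type VI collagen are known parts of the surroundings that keep muscle stem cells quiescent or able to renew themselves.

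Transcripts of type I and type III collagen dominated the family. Col1a1, Col1a2 and Col3a1 together made up 73.2% and 73.4% of all collagen TPM in the wild-type day 0 libraries, and 48.8% and 50.2% in the knockout day 0 libraries. At day 7 the same sum reached 82.9% and 83.4% against 84.2% and 85.3%. At day 21 it lay at 73.5% to 79.7% over the 4 libraries. The sum over the 44 genes was 4342 ± 84.9 against 3272 ± 261 TPM at day 0 (mean ± SD, n = 2). It was 15020.4 ± 1118 against 15568 ± 1177 at day 7, and 8812 ± 606 against 10044 ± 1662 by label at day 21. All 4 day 7 libraries thus stood above all 4 day 21 libraries, and these above all 4 day 0 libraries. By the mean over the 4 libraries of a day, 6 genes had their highest TPM at day 0, 14 at day 7 and 24 at day 21.

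The make-up of the family differed between genotypes mainly at day 0. Fibrillar genes held 74.4 ± 0.0603% of collagen TPM against 50.7 ± 1.11% at day 0 (wild type first, mean ± SD), and 83.4 ± 0.325% against 85.0 ± 0.781% at day 7. Col4 genes held 4.28 ± 0.0808% against 10.5 ± 0.304% at day 0, and 1.74 ± 0.135% against 1.73 ± 0.478% at day 7. The fibril-associated genes, of which Col20a1 was the most abundant at day 0, held 9.74 ± 0.0951% against 23.0 ± 1.21% at day 0 but 2.03 ± 0.0885% against 1.66 ± 0.0232% at day 7. Knockout and wild-type libraries of day 0 did not overlap in any of these 3 types. The shares are a description, with no test.

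**Figure D1:**
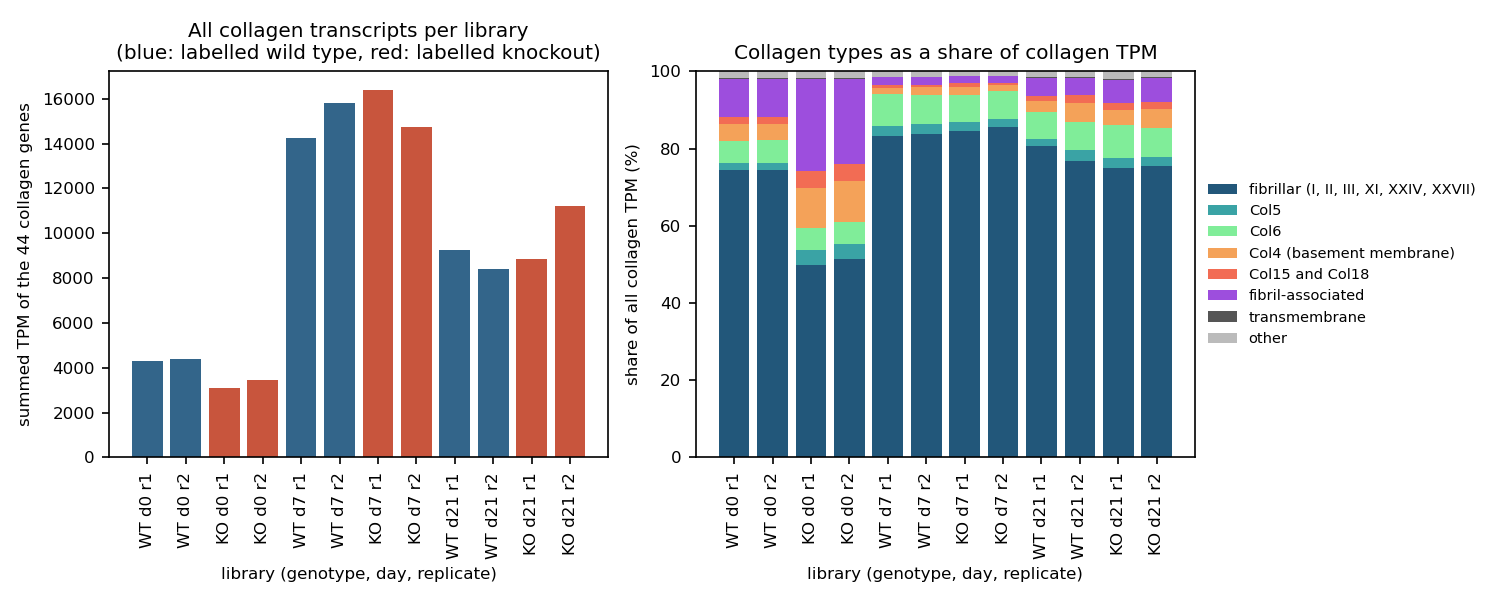
Left, summed TPM of the 44 collagen genes in each of the 12 libraries (bars start at 0). Right, the share of that sum in each collagen type, where the fibrillar share of the 2 knockout day 0 libraries is the smallest.

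By day 7 Col1a1, Col1a2, Col3a1, Col5a1, Col5a2 and 4 of 6 Col6 genes had risen in both genotypes, while no basement membrane chain of type IV had. In wild type 17 collagen genes rose and 14 fell, so 31 of 44 were called at an edgeR adjusted p under 0.05, against 47.0% of all genes tested (25.8% up, 21.2% down). In knockout 19 rose and 8 fell, 27 of 44 against 46.9% (24.7% up, 22.2% down). The median log2 fold change of the 44 genes was 0.31 in wild type and 0.26 in knockout, and over all genes tested 0.057 and 0.028. All 3 Col5 genes and 4 of 6 Col6 genes rose in wild type, with 2 of 3 and 4 of 6 in knockout. Of the Col4 genes 4 of 6 fell in wild type and 3 of 6 in knockout.

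Other cell types' markers moved over the same days. The summed fibro-adipogenic markers were at 10067 and 10050.4 against 9454 and 9587 TPM at day 0 and 5091 and 5079.9 against 5137 and 5805 at day 7. In each genotype 4 of the 11 rose and 5 fell. All 5 glial markers fell in both genotypes, with sums of 1709 and 1783 against 2075 and 2120.1 TPM at day 0 and 256 and 235 against 351 and 268 at day 7. Mural markers summed to 5013 and 5000.3 against 7657 and 7643 TPM at day 0 and to 2151 and 2152 against 3148 and 3146 at day 7. Of the 7, 2 rose and 3 fell in wild type, and 1 rose and 4 fell in knockout. The tenocyte sum was higher at day 7, from 2359 and 2444 against 2061 and 2159 TPM to 3097 and 2932 against 2925 and 3354. Of these 6 genes none rose and 1 (Cilp2) fell in wild type. In knockout 2 (Scx and Tnmd) rose and none fell. Of the 6 immune markers tested 4 rose in wild type and 5 in knockout, while Lyz2 fell in both. Their sum was lower at day 7 (2031 and 2047 against 3514 and 3405 TPM at day 0, 349 and 476 against 516 and 351 at day 7). The 6 epidermal markers summed to 174 and 181 against 2.83 and 2.93 TPM at day 0 and 10.2 and 23.3 against 8.74 and 7.32 at day 7, with 5 lower at day 7 in wild type by the test and 1, Krt10, higher in knockout. Of the 10 muscle stem cell markers 4 rose and 2 fell in wild type, and 6 rose and 2 fell in knockout. The part of these shifts in the collagen changes was not tested, and in bulk libraries fewer cells of a type and less RNA per cell cannot be told apart.

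In uninjured muscle the knockout libraries carried less type I collagen transcript and more basement membrane collagen transcript than wild type. At day 0, 12 collagen genes were higher and 15 lower in knockout, 27 of 44 called against 27.4% of all genes tested (14.8% higher, 12.6% lower). On normalised counts, no overlap between knockout and wild-type libraries was seen for 42 of 44 genes, against 75.1% of all genes. Of the 8 fibrillar genes 4 were lower and 1 higher, and 3 of 4 transmembrane genes were lower. Of the 6 Col4 genes 4 were higher and none lower, of the 6 Col6 genes 2 were higher and 2 lower, and of the 9 fibril-associated genes 3 were higher and 3 lower. The median log2 fold change (knockout over wild type) was -0.41 over the 44 genes and 0.0022 over all genes tested. The count of 27 fell to 10 without the first and to 10 without the second wild-type day 0 library, to 14 without the first and to 8 without the second knockout day 0 library. Only Col1a1, Col2a1, Col4a6, Col14a1 and Col19a1 were called under all 24 other settings run.

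Several marker lists differed between the genotypes at day 0 as well. Muscle stem cell markers summed to 779.6 and 790.1 against 618 and 594 TPM, and 7 of 10, Pax7 among them (-1.10 ± 0.28, edgeR adjusted p = 0.0161), were lower. Mural markers summed to 5013 and 5000.3 against 7657 and 7643 TPM, with 4 of 7 higher. Of the 11 fibro-adipogenic markers 3 were lower and none higher, 27.3% against the 27.4% of all genes (summed 10067 and 10050.4 against 9454 and 9587 TPM), and of the 6 tenocyte markers 2 were lower and none higher (2359 and 2444 against 2061 and 2159). The 6 epidermal markers, all lower in knockout, summed to 174 and 181 against 2.83 and 2.93 TPM; in knockout Krt5, Krt14, Krt15 and Krtdap were at 0 in both libraries. Of the 6 immune markers tested none passed (2 at an unadjusted p under 0.05, against 6381 of all 15890 genes tested). The part of these differences in the collagen values was not tested.

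**Figure D2:**
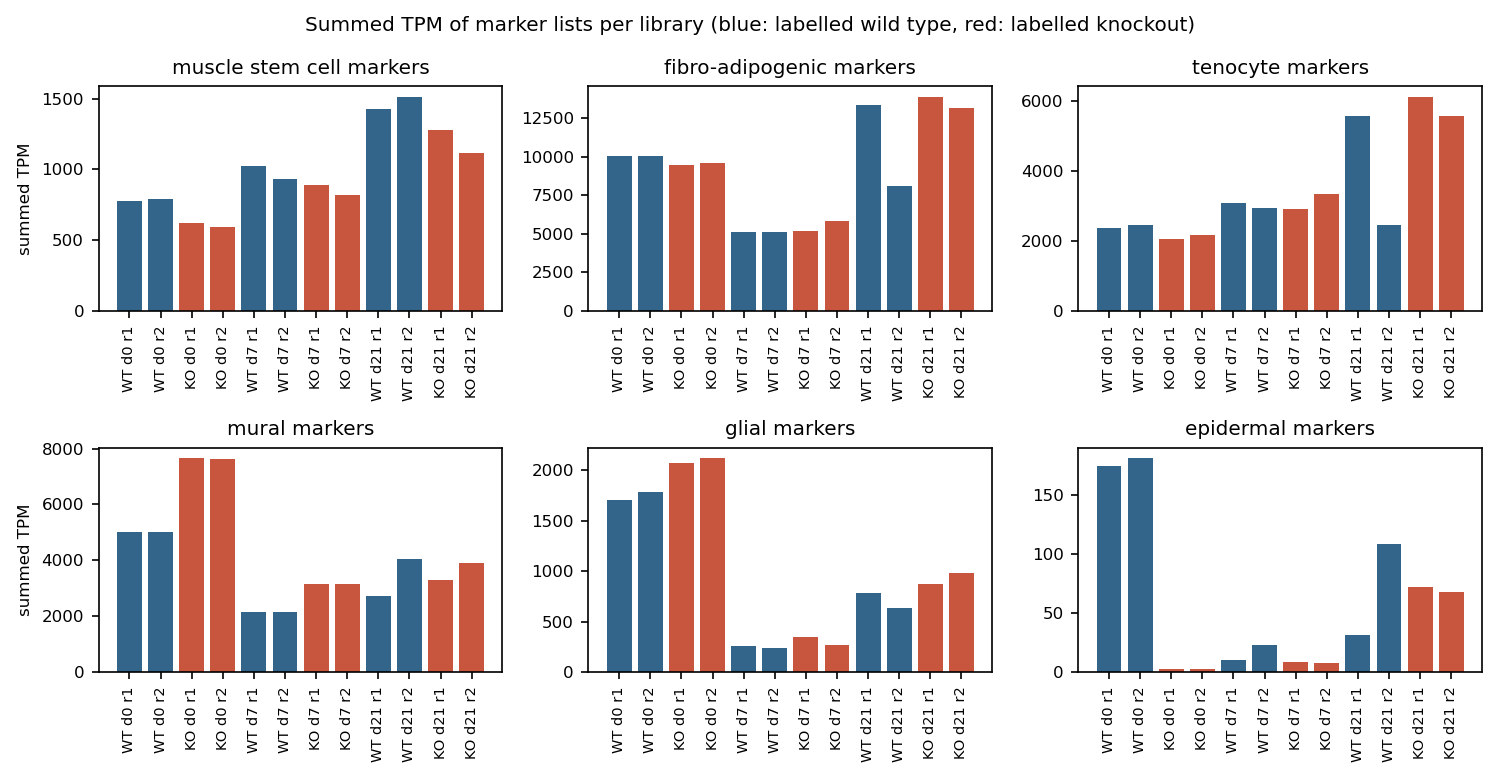
Summed TPM of 6 lists of cell type markers in each of the 12 libraries, as bars that start at 0 (blue wild type, red knockout). The glial and mural sums are highest at day 0, and the second library labelled wild type at day 21 lies below the other 3 in the fibro-adipogenic and tenocyte sums.

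**Figure D3:**
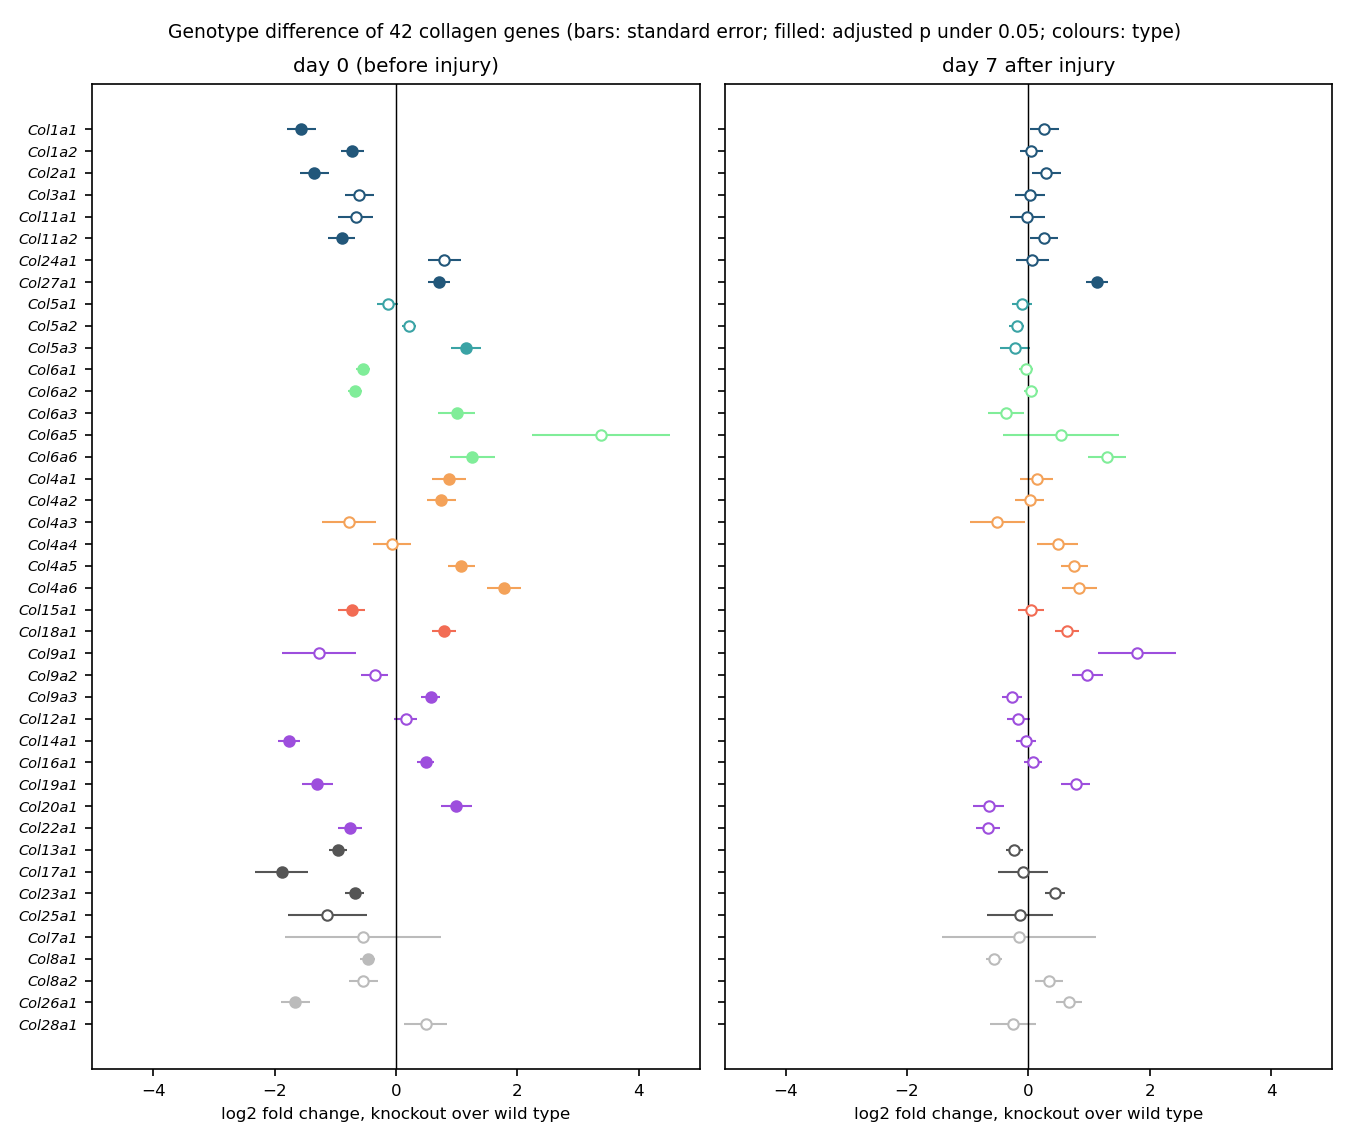
Log2 fold change of knockout over wild type (point, with its standard error as bar) for 42 collagen genes at day 0 and day 7, filled where the edgeR adjusted p was under 0.05; Col6a4 and Col10a1, at 0 in the wild-type day 0 libraries, are left out. At day 0 filled points lie on both sides of 0, and at day 7 Col27a1 alone is filled.

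At day 7 the genotypes differed less. Of the 44 genes 1, Col27a1, was called, and higher in knockout, against 1.76% of all genes tested (1.08% higher, 0.680% lower). An unadjusted edgeR p under 0.05 was found for 13 of the 44, against 2268 of all 15890 genes tested. DESeq2 called 9, and edgeR run on 8 libraries, those of days 0 and 7, called 7. The 1.76% belongs to edgeR on all 12 libraries, and shares of all genes under other settings are not given here. The call of Col27a1 was lost without either wild-type day 7 library (0 called), and the count was 4 and 5 without the first and second library labelled wild type at day 21 and 2 without either library labelled knockout. Type I and III collagen had log2 fold changes near 0 (Col1a1 0.26 ± 0.23, Col1a2 0.049 ± 0.18, Col3a1 0.026 ± 0.24, ± SE).

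The change from day 0 to day 7 itself differed between genotypes for 14 collagen genes (interaction test), against 13.5% of all genes tested (6.08% more positive in knockout, 7.39% more negative). The change was more positive in knockout for 11 (Col1a1, Col2a1, Col11a2, Col6a2, Col9a1, Col9a2, Col14a1, Col19a1, Col13a1, Col23a1 and Col26a1) and more negative for 3 (Col5a3, Col9a3 and Col20a1). This test uses the same day 0 and day 7 libraries as the genotype and injury comparisons above. The count was 4 to 7 without any 1 of the 4 day 0 or 2 wild-type day 7 libraries, 11 and 9 without the first and second knockout day 7 library, 20 without either library labelled wild type at day 21 and 12 without either labelled knockout, and Col1a1, Col14a1 and Col19a1 were called under all 24 other settings.

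**Figure D4:**
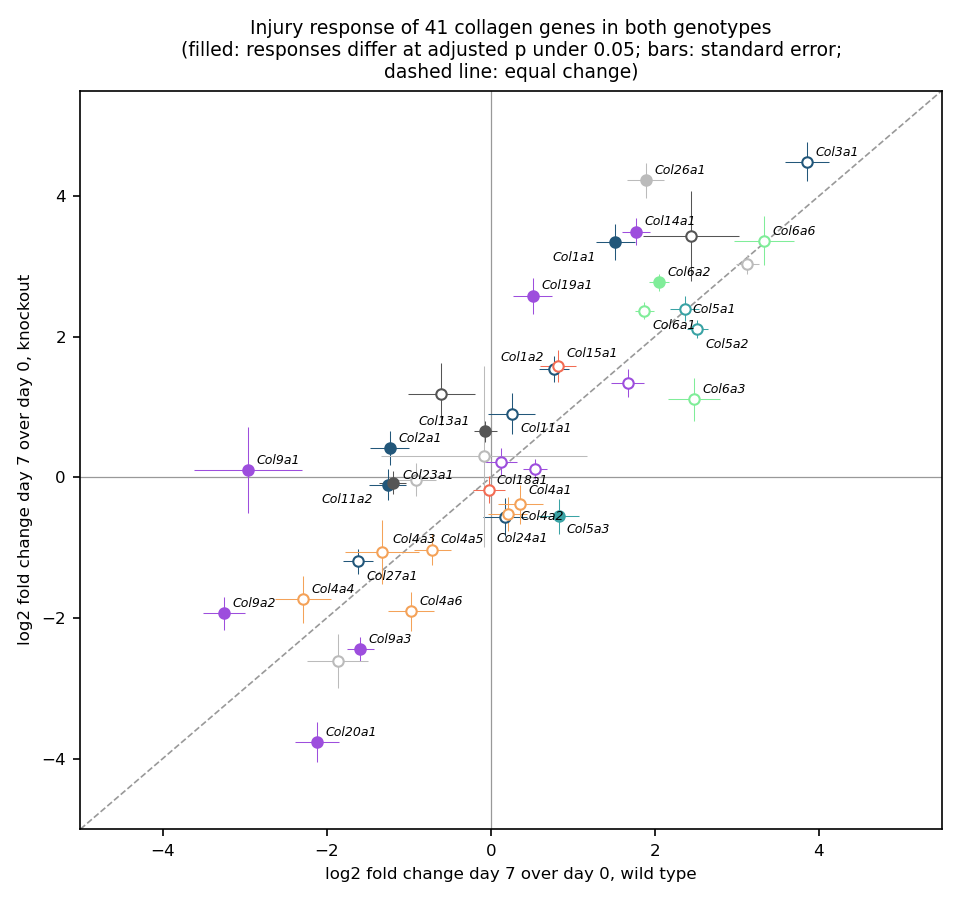
Log2 fold change from day 0 to day 7 in wild type (horizontal axis) and in knockout (vertical axis) for 41 collagen genes, with standard errors as bars, the line of equal change and colours by collagen type as in the plot of shares; filled points are the 14 genes whose change differed between genotypes, and the scarce Col6a4, Col6a5 and Col10a1 are left out. Col14a1, Col19a1, Col1a1 and Col26a1 lie above the line and Col20a1 and Col5a3 below it.

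By day 21 Col1a1, Col3a1, Col5a1 and Col5a2 had fallen from their day 7 level, and most Col4 genes had risen. Over the 4 libraries of each day, 24 collagen genes rose and 11 fell from day 7 to day 21, 35 of 44 against 56.8% of all genes (28.4% up, 28.4% down). Against day 0, 29 were higher and 4 lower at day 21, 33 of 44 against 45.9% (25.0% higher, 20.8% lower); the day 21 libraries are shared by these comparisons. All 6 tenocyte, all 10 muscle stem cell and 6 of 11 fibro-adipogenic markers were also higher at day 21 than at day 0, 1 fibro-adipogenic marker and all 5 glial markers were lower. Their part in the collagen rise was not tested. From day 7 to day 21, 5 of 6 Col4 genes rose and none fell. Col5a1 and Col5a2 fell while Col5a3 rose, and of 6 Col6 genes 3 fell and 1 rose. Over the same days 5 of 5 glial, 4 of 6 tenocyte, 4 of 6 epidermal and 2 of 8 endothelial markers rose and none of these fell. Of 7 mural markers 4 rose and 1 fell, and of 11 fibro-adipogenic markers 6 rose and 2 fell. Of 10 muscle stem cell markers 5 rose and 3 fell, and of 6 immune markers 1 rose and 4 fell. The part of these markers was not tested. By label, 0 of 44 genes differed between genotypes at day 21 with edgeR, against 0.0126% of all genes (0.00629% in each direction). An unadjusted edgeR p under 0.05 was found for 14 of the 44, against 2259 of all 15890 genes tested. DESeq2 called Col20a1 and Col22a1, and its share over all genes is not given here. Without both libraries that went against their labels, the genes picked by the edgeR test in that fit were all higher in the knockout library. Their log2 fold changes were 0.72 for Col1a2, 0.44 for Col6a1, 0.57 for Col8a1, 0.96 for Col8a2, 1.32 for Col11a1, 0.94 for Col11a2, 0.80 for Col12a1 and 1.05 for Col22a1. The other collagen genes and the share over all genes in that fit are not given here. That fit has 1 library per genotype at day 21, which was assumed to vary like the other groups. The second library labelled wild type had summed tenocyte markers of 2461 TPM against 5569 to 6131 in the other 3, and fibro-adipogenic markers of 8118 against 13185 to 13891.

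Among the fibrillar genes, those of type I collagen, the main protein of tendon and scar, were the most abundant. Col1a1 (ENSMUSG00000001506, chr11:94936224-94953042, plus strand, GRCm38), the alpha 1 chain, was at 1439.8 and 1498 against 482 and 559.9 TPM at day 0, and at 4709.6 and 5181 against 5923 and 5573 at day 7. Day 21 values were 3149 and 2285 against 1788 and 3158 TPM by label. Both knockout day 0 libraries lay below every other library, and the day 7 libraries above every other. At day 0 the log2 fold change of knockout over wild type, with its standard error, was -1.56 ± 0.24 (edgeR adjusted p = 0.00176). The rise to day 7 was 1.52 ± 0.24 (edgeR adjusted p = 0.000554) in wild type and 3.35 ± 0.26 (edgeR adjusted p = 4.86e-06) in knockout, a difference of 1.83 ± 0.33 (edgeR adjusted p = 0.00940). From day 7 to day 21 it fell by 0.97 on the log2 scale (edgeR adjusted p = 0.000625).

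The alpha 2 chain gene Col1a2 (chr6:4504814-4541544, plus strand) moved less. It was at 1427 and 1459 against 853 and 967 TPM at day 0, 2775 and 3001 against 2948 and 2843 at day 7, and 3228 and 2187 against 3386 and 3645 by label at day 21. The genotypes did not overlap at day 0 (-0.72 ± 0.19, edgeR adjusted p = 0.0175) and overlapped at day 7. It rose by 0.77 ± 0.19 in wild type and 1.54 ± 0.19 in knockout, and the difference between these rises did not pass the test (0.77 ± 0.26, edgeR adjusted p = 0.0799). The ratio of Col1a1 to Col1a2 TPM was 1.01 and 1.03 against 0.565 and 0.579 at day 0, and 1.70 and 1.73 against 2.01 and 1.96 at day 7; type I collagen is built from alpha 1 and alpha 2 chains, with more alpha 1. At day 21 the ratio was 0.976 and 1.04 by label in wild type and 0.528 and 0.866 in knockout.

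Col3a1 (chr1:45311538-45349706, plus strand), the single chain of type III collagen, which is laid down early in repair, had the largest rise to day 7 among the collagens above 100 TPM at that day. It was at 267 and 273 against 171 and 208 TPM at day 0, 4314 and 5010.4 against 4946 and 4149 at day 7, and 984 and 1905 against 1349 and 1524 by label at day 21. The rise was 3.86 ± 0.27 (edgeR adjusted p = 4.42e-06) in wild type and 4.49 ± 0.28 (edgeR adjusted p = 1.52e-06) in knockout, and their difference did not pass the test (0.63 ± 0.34, edgeR adjusted p = 0.252). The day 0 difference between genotypes did not pass either (-0.60 ± 0.24, edgeR adjusted p = 0.0892), although both knockout libraries were below both wild-type libraries. Col3a1 stood at 0.185 and 0.182 of the Col1a1 level against 0.355 and 0.371 at day 0, and at 0.916 and 0.967 against 0.835 and 0.744 at day 7. Its exons share 141 bases with Gm47302 on the same strand, which counting could split.

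Promoter sequence was read from RefSeq (GRCm38.p6) for 35 of the 44 genes, in 38 windows of 250 bases before a start site; Col1a1, Col2a1, Col5a2, Col4a3, Col9a3, Col12a1, Col14a1, Col22a1 and Col26a1 had no entry. Each window was searched on both strands for CCAAT, for GGGCGG and for TATAAA, counting overlapping matches separately. CCAAT was found in 34.2% of the collagen windows and 33.8% of all 32851 windows of that length, GGGCGG in 57.9% and 32.7%, and TATAAA in 13.2% and 12.4%. The windows of Col3a1 (chr1:45311288-45311537, plus strand), Col5a1 (chr2:27886175-27886424, plus strand) and Col5a3 (chr9:20815068-20815317, minus strand) are shown because these fibril genes all rose to day 7 in wild type while in knockout Col5a3 did not pass, and that of Col4a6 (chrX:141474077-141474326, minus strand) because its difference was the largest among collagen genes called higher in knockout at day 0. Each is written 5′ to 3′ on the gene's strand, with matches to the motifs, on either strand, in capitals.
Col3a1: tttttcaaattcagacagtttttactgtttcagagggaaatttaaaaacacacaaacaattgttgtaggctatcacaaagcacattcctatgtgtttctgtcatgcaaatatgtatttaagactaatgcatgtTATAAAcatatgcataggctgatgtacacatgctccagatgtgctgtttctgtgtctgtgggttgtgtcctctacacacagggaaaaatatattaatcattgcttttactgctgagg
Col5a1: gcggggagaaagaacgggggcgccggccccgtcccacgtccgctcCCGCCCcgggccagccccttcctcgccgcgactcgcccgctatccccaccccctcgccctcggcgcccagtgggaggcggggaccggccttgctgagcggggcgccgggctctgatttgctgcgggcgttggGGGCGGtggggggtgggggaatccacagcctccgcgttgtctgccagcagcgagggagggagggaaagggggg
Col5a3: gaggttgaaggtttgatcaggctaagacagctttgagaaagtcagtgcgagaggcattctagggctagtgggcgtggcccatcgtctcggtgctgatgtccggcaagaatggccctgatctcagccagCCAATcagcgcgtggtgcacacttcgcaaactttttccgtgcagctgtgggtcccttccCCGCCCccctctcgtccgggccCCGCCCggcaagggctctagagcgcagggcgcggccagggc
Col4a6: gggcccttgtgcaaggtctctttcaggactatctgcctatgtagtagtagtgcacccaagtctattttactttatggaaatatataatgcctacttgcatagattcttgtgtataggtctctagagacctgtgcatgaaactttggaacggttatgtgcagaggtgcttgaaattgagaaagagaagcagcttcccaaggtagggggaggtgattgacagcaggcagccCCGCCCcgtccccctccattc
The Col3a1 window had the lowest share of G and C among the collagen windows (35.2%) and 1 TATAAA match, and that of Col5a1 the highest (76.4%) with 2 GGGCGG matches. Col5a3 had 1 CCAAT and 2 GGGCGG matches (62.8% G and C), and Col4a6 had 1 GGGCGG match (47.6%). In all, 20 of the 38 windows, the 4 shown among them, held no annotated exonic bases, and the shares above cover windows of both kinds. A match of letters is a description and not a site of binding.

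The remaining fibrillar genes, best known from cartilage, were far less abundant. Col2a1, the type II collagen chain, was at 6.14 and 6.85 against 2.17 and 3.10 TPM at day 0, 3.36 and 3.11 against 3.84 and 4.36 at day 7, and 14.0 and 9.18 against 12.5 and 15.5 at day 21 by label. The knockout libraries were the lower at day 0 (-1.35 ± 0.24, edgeR adjusted p = 0.00341), and the day 21 libraries were the highest of all. It fell by 1.23 on the log2 scale to day 7 in wild type (edgeR adjusted p = 0.00187), while in knockout its change was 0.41 ± 0.24 (edgeR adjusted p = 0.186), and the difference was 1.64 ± 0.34 (edgeR adjusted p = 0.0145).

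Type XI collagen, which co-assembles with other fibrillar chains and sets fibril width, was represented by Col11a1 and Col11a2. Col11a1 was at 13.3 and 13.5 against 8.56 and 9.30 TPM at day 0 (-0.66 ± 0.29, edgeR adjusted p = 0.119), 16.7 and 17.0 against 20.2 and 17.2 at day 7, and 32.0 and 17.5 against 39.7 and 45.9 at day 21 by label. It rose to day 7 in knockout (0.91 ± 0.29, edgeR adjusted p = 0.0281) but did not pass in wild type (0.26 ± 0.29, edgeR adjusted p = 0.493), and the interaction did not pass (0.65 ± 0.41, edgeR adjusted p = 0.327). The second library labelled wild type at day 21 stayed near the day 7 level while the other 3 were the highest of all.

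Col11a2 was called between genotypes at day 0 on counts but not on TPM. It was at 23.3 and 18.5 against 11.5 and 21.1 TPM at day 0, overlapping groups, whereas its count levels per library size (CPM, not corrected for length) were 72.8 and 76.4 against 36.5 and 43.7 and did not overlap. The CPM at day 7 were 37.2 and 25.2 against 37.6 and 37.2, and at day 21 by label 155 and 97.0 against 184 and 211. On counts it was lower in knockout at day 0 (-0.90 ± 0.23, edgeR adjusted p = 0.0165) and its day 7 change differed between genotypes (1.15 ± 0.32, edgeR adjusted p = 0.0408); both calls were lost with limma on log2(TPM + 1). Its TPM ran from 6.50 in a wild-type day 7 library to 64.8 in a day 21 library, and the rise from day 7 to day 21 was 2.21 ± 0.16 (edgeR adjusted p = 3.31e-06).

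Col27a1, a minor fibrillar collagen of cartilage, was higher in knockout where type I collagen was lower. It was at 6.96 and 7.75 against 11.9 and 11.1 TPM at day 0, 2.29 and 3.05 against 3.99 and 7.11 at day 7, and 4.31 and 4.60 against 5.27 and 6.09 by label at day 21. Both knockout libraries were above both wild-type libraries on both days, by 0.71 ± 0.18 (edgeR adjusted p = 0.0164) at day 0 and 1.13 ± 0.19 (edgeR adjusted p = 0.0182) at day 7, and both calls were lost with limma on log2(TPM + 1). It fell to day 7 by 1.62 in wild type and by 1.19 in knockout on the log2 scale. Col24a1, the last of the fibrillar genes, ranged from 0.852 to 4.37 TPM and passed no genotype or interaction test.

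Type V collagen co-assembles with type I and starts its fibrils, and in resting muscle it is a known signal to muscle stem cells through the calcitonin receptor. The day 7 change differed between genotypes by the test for its chain Col5a3, and did not pass for Col5a1 or Col5a2. Col5a1 was at 18.5 and 19.5 against 15.02 and 17.7 TPM at day 0, 135 and 149 against 131 and 119.9 at day 7, and 32.9 and 55.7 against 52.0 and 56.0 at day 21 by label. It rose by 2.36 ± 0.18 (edgeR adjusted p = 5.72e-06) in wild type and 2.40 ± 0.18 (edgeR adjusted p = 3.81e-06) in knockout, with an interaction of 0.033 ± 0.24 (edgeR adjusted p = 0.959). Its exons share 212 bases with genes on the other strand, and whether counting used strand is not stated.

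Col5a2, which lies next to Col3a1 on chromosome 1 on the opposite strand (chr1:45374321-45503282), was at 32.3 and 30.6 against 33.7 and 39.4 TPM at day 0, 194 and 212 against 191 and 153 at day 7, and 85.7 and 102 against 119 and 119 by label at day 21. No day 0 library reached any day 7 or day 21 library, and the rise was 2.52 ± 0.13 (edgeR adjusted p = 7.77e-07) in wild type and 2.11 ± 0.13 (edgeR adjusted p = 1.02e-06) in knockout, with an interaction of -0.41 ± 0.17 (edgeR adjusted p = 0.143). Col5a3, the least widespread of the chains, was at 27.6 and 30.8 against 64.2 and 70.5 TPM at day 0, 56.2 and 65.4 against 59.2 and 41.3 at day 7, and 45.8 and 82.9 against 71.4 and 106 at day 21 by label. The knockout day 0 libraries were above both wild-type day 0 libraries (1.15 ± 0.25, edgeR adjusted p = 0.00947) and within or above the range of the day 7 libraries. Col5a3 rose in wild type (0.83 ± 0.25, edgeR adjusted p = 0.0217), did not pass in knockout (-0.55 ± 0.25, edgeR adjusted p = 0.0952), and the difference passed (-1.38 ± 0.35, edgeR adjusted p = 0.0329). The ratio of Col5a3 to Col5a1 TPM was 1.49 and 1.58 against 4.27 and 3.97 at day 0, and 0.416 and 0.439 against 0.451 and 0.345 at day 7.

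Type VI collagen, whose loss causes muscular dystrophy, needs Col6a1, Col6a2 and a long chain, usually that of Col6a3. Col6a1 (chr10:76708792-76726168) and Col6a2 (chr10:76595762-76623630) are neighbours on the minus strand of chromosome 10. Col6a1 was at 161 and 166 against 115 and 118 TPM at day 0, 691 and 715 against 673 and 649 at day 7, and 423 and 361 against 459.7 and 491 by label at day 21. The knockout day 0 libraries were the lowest (-0.54 ± 0.11, edgeR adjusted p = 0.00674) and the day 7 libraries the highest, with rises of 1.87 ± 0.12 in wild type and 2.37 ± 0.12 in knockout. The difference between these rises did not pass (0.50 ± 0.16, edgeR adjusted p = 0.0651).

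Col6a2 followed the same order, at 73.7 and 75.2 against 44.3 and 52.0 TPM at day 0, 358 and 381 against 398 and 342 at day 7, and 196 and 195 against 243 and 239 at day 21 by label. It was lower in knockout at day 0 (-0.68 ± 0.11, edgeR adjusted p = 0.00256) and rose more in knockout, by 2.77 ± 0.12 against 2.05 ± 0.12 in wild type, a difference of 0.72 ± 0.16 (edgeR adjusted p = 0.0187). Col6a3 differed in direction: it was at 15.3 and 14.1 against 23.1 and 25.4 TPM at day 0, 107 and 112 against 85.8 and 71.8 at day 7, and 30.6 and 55.1 against 40.1 and 83.1 by label at day 21. It was higher in knockout at day 0 (1.00 ± 0.31, edgeR adjusted p = 0.0395), a call lost with limma on log2(TPM + 1), and it rose by 2.48 ± 0.32 in wild type and 1.11 ± 0.30 in knockout with an interaction that did not pass (-1.37 ± 0.43, edgeR adjusted p = 0.0677).

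Col6a4, Col6a5 and Col6a6 are alternatives to the Col6a3 chain that lie side by side on the minus strand of chromosome 9, and all were scarce. Col6a6 was at 0.0516 and 0.0683 against 0.190 and 0.287 TPM at day 0 (1.25 ± 0.37, edgeR adjusted p = 0.0306, lost with limma on log2(TPM + 1)), 0.510 and 0.934 against 1.505 and 1.88 at day 7, and 0.424 and 0.364 against 0.528 and 0.554 at day 21 by label. The groups did not overlap at day 0 or day 7, and the rise to day 7 passed in both genotypes (3.33 and 3.36). Col6a5 stayed at or below 0.480 TPM and Col6a4 at or below 0.257 TPM; both wild-type day 0 libraries had 0 counts of Col6a4, and the 12 libraries had at most 22, so no fold is given.

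Type IV collagen, the scaffold of the basement membrane, had 4 of 6 genes higher and none lower in knockout at day 0. The summed TPM of the Col5, fibril-associated and Col15a1 and Col18a1 genes was higher in knockout at day 0 too, but their calls were 1 higher and none lower of 3, 3 and 3 of 9, and 1 and 1 of 2, against 14.8% higher and 12.6% lower over all genes. Col4a1 (chr8:11198423-11312826, minus strand) and Col4a2 (chr8:11312805-11449287, plus strand), the common chains, start head to head on chromosome 8. Col4a1 was at 109 and 114 against 196 and 229.5 TPM at day 0, 152 and 185 against 228 and 129 at day 7, and 165 and 256 against 214 and 338 by label at day 21. At day 0 the groups did not overlap (0.88 ± 0.28, edgeR adjusted p = 0.0432), and at day 7 they did (0.14 ± 0.28, edgeR adjusted p = 0.894).

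Col4a2 was at 63.5 and 64.1 against 104 and 119.7 TPM at day 0 (0.74 ± 0.24, edgeR adjusted p = 0.0439), 76.7 and 98.4 against 102 and 67.7 at day 7, and 87.3 and 132 against 122 and 194 at day 21 by label. Both day 0 calls, of Col4a1 and Col4a2, were lost with limma on log2(TPM + 1), and neither gene changed from day 0 to day 7 in either genotype by the test. The ratio of Col4a1 to Col4a2 TPM stayed between 1.72 and 2.23 over the 12 libraries. From day 7 to day 21 both rose, Col4a1 by 0.53 ± 0.20 (edgeR adjusted p = 0.0411, a call also lost with limma on log2(TPM + 1)) and Col4a2 by 0.68 ± 0.17 (edgeR adjusted p = 0.00609).

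Col4a5 and Col4a6, chains of specialised basement membranes such as those around smooth muscle, also start head to head, on the X chromosome (chrX:141475385-141689234, plus strand, and chrX:141165403-141474076, minus strand). Col4a5 was at 8.66 and 5.56 against 14.1 and 16.6 TPM at day 0 (1.07 ± 0.22, edgeR adjusted p = 0.00673), 4.56 and 5.55 against 8.71 and 7.37 at day 7, and 11.0 and 16.3 against 14.0 and 19.0 by label at day 21. Col4a6 was at 0.754 and 0.617 against 2.20 and 2.60 TPM at day 0, 0.397 and 0.415 against 0.703 and 0.698 at day 7, and 1.02 and 2.08 against 1.72 and 2.13 at day 21. In both genes the knockout libraries were above the wild-type libraries at day 0 and at day 7, and the day 0 difference of Col4a6 was 1.78 ± 0.28 (edgeR adjusted p = 0.00181). Both fell to day 7 in both genotypes (Col4a6 by 0.97 in wild type and by 1.90 in knockout on the log2 scale, the wild-type calls of both genes being lost with limma on log2(TPM + 1)) and rose to day 21 (Col4a5 1.35 ± 0.16, Col4a6 1.76 ± 0.20). At day 7 neither genotype difference passed (Col4a5 0.76 ± 0.22, edgeR adjusted p = 0.142, Col4a6 0.84 ± 0.28, edgeR adjusted p = 0.197). The summed mural markers were higher in the knockout libraries on both days, as given above. Of the 7, Myh11, Pdgfrb, Cspg4 and Acta2 passed at day 0 and Acta2 alone at day 7. Rgs5 and Kcnj8 at day 0 (-0.55 and -1.09) and Rgs5 and Abcc9 at day 7 (-0.31 and -0.51) had negative values that did not pass.

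Col4a3 and Col4a4, known from the filter of the kidney, were scarce, at 0.170 to 2.45 and 0.127 to 0.781 TPM. Col4a4 fell to day 7 in both genotypes (-2.29 ± 0.34, edgeR adjusted p = 0.000365 in wild type and -1.74 ± 0.33, edgeR adjusted p = 0.00166 in knockout), Col4a3 fell in wild type (-1.32 ± 0.45, edgeR adjusted p = 0.0334) and did not pass in knockout (-1.06 ± 0.46, edgeR adjusted p = 0.0823), and the interaction of Col4a3 did not pass (0.27 ± 0.64, edgeR adjusted p = 0.832). Neither passed a genotype test.

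Col15a1 and Col18a1 encode the collagens that tie the basement membrane to the tissue around it, and they differed in opposite directions at day 0. Col15a1 was at 6.08 and 6.12 against 3.83 and 3.80 TPM at day 0, 11.5 and 13.7 against 15.6 and 9.50 at day 7, and 18.5 and 25.0 against 19.3 and 26.05 at day 21 by label. Levels rose from day 0 to day 7 in wild type (0.82 ± 0.22, edgeR adjusted p = 0.0121) and in knockout (1.59 ± 0.23, edgeR adjusted p = 0.000281), with an interaction that did not pass (0.77 ± 0.31, edgeR adjusted p = 0.134), and all 4 day 21 libraries were above all day 7 libraries. Its day 0 call (-0.73 ± 0.22, edgeR adjusted p = 0.0368) was lost with limma on log2(TPM + 1).

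Col18a1, the precursor of endostatin, was at 75.1 and 79.5 against 130.2 and 146 TPM at day 0 (0.79 ± 0.20, edgeR adjusted p = 0.0150), 87.0 and 96.0 against 169 and 101 at day 7, and 103 and 137 against 149.7 and 183 by label at day 21. The knockout libraries were above the wild-type libraries at day 0 and at day 7, where the difference did not pass (0.64 ± 0.20, edgeR adjusted p = 0.156). It did not change by the test from day 0 to day 7 in either genotype (-0.026 and -0.18).

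**Figure D5:**
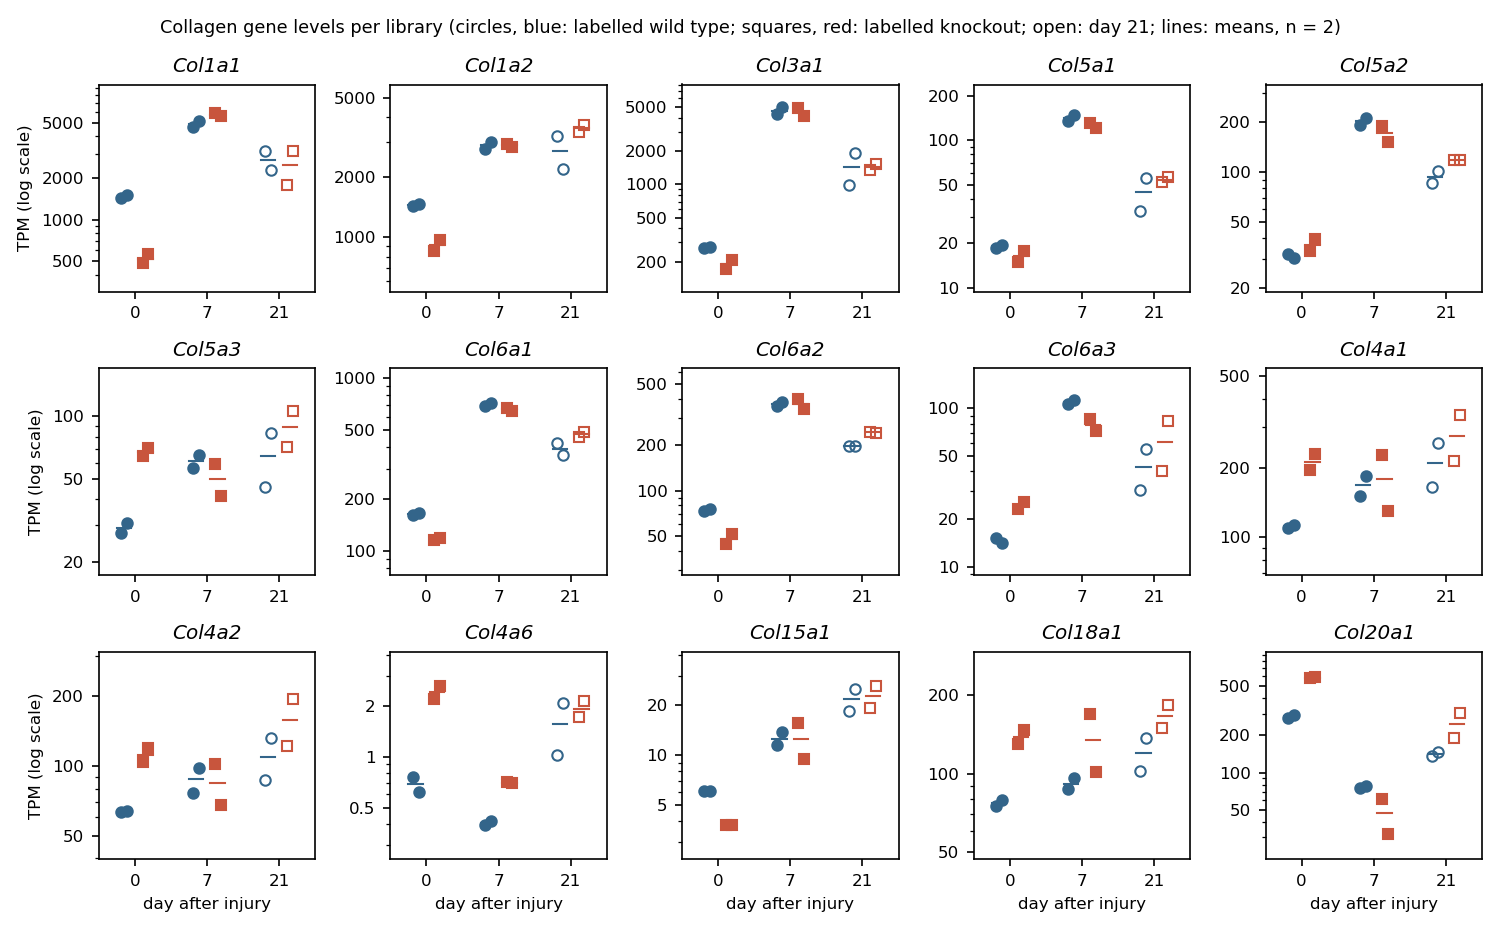
TPM on a log axis by day for 15 collagen genes (circles wild type, squares knockout, open at day 21 where labels are in doubt), with short lines at the means of 2 libraries. Col1a1 and Col6a2 start lower, and Col4a6 and Col5a3 higher, in the knockout libraries at day 0.

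The fibril-associated collagens sit on the surface of fibrils, and at day 0 Col20a1 was the most abundant of them. It was at 277 and 294 against 579 and 591 TPM at day 0, 75.4 and 78.7 against 61.8 and 32.1 at day 7, and 136 and 146 against 190.2 and 303 at day 21 by label. It was higher in knockout at day 0 (0.99 ± 0.26, edgeR adjusted p = 0.0199) and fell to day 7 by 2.12 in wild type and by 3.76 in knockout on the log2 scale, a difference of -1.64 ± 0.36 (edgeR adjusted p = 0.0207). It was 1 of 4 collagen genes lower at day 21 than at day 0 (-1.24 ± 0.18, edgeR adjusted p = 0.000513). Its exons share 79 bases with another gene on the same strand. All 5 glial markers fell to day 7 and were lower at day 21 than at day 0 too; whether Col20a1 belonged to those cells was not tested.

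Col14a1 and Col12a1 bridge collagen fibrils to their surroundings in tendon and in repairing muscle. Col14a1 was at 3.98 and 3.84 against 0.839 and 1.30 TPM at day 0, 14.3 and 15.7 against 15.9 and 13.0 at day 7, and 7.73 and 7.65 against 7.65 and 7.75 by label at day 21. The genotypes differed at day 0 (-1.76 ± 0.18, edgeR adjusted p = 0.000452) and overlapped at day 7. It rose by 1.77 ± 0.17 in wild type and 3.50 ± 0.19 in knockout, a difference of 1.73 ± 0.25 (edgeR adjusted p = 0.00360). Col12a1 was at 20.6 and 22.3 against 28.5 and 20.3 TPM at day 0, 68.4 and 61.6 against 48.1 and 60.0 at day 7, and 70.1 and 38.5 against 64.3 and 68.7 at day 21. Its rise passed in wild type (1.67 ± 0.20, edgeR adjusted p = 9.86e-05) and knockout (1.35 ± 0.20, edgeR adjusted p = 0.000321), and it passed no genotype test in the fit of all 12 libraries.

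Col16a1 was at 64.1 and 63.2 against 87.4 and 108 TPM at day 0 (0.49 ± 0.14, edgeR adjusted p = 0.0294), 99.1 and 115 against 112 and 104 at day 7, and 102 and 113 against 131 and 161 by label at day 21. The day 21 libraries overlapped those of day 7 and of knockout day 0. Col22a1, a collagen of the junction between muscle and tendon, was at 27.9 and 28.8 against 18.9 and 21.0 TPM at day 0 (-0.76 ± 0.20, edgeR adjusted p = 0.0186, lost with limma on log2(TPM + 1)), 29.7 and 26.9 against 22.9 and 15.7 at day 7, and 80.8 and 54.4 against 108 and 133 at day 21. All 4 day 21 libraries were above every earlier library, a rise of 1.78 ± 0.14 (edgeR adjusted p = 4.61e-06) from day 7, and its lowest day 21 value was in the library with the lowest tenocyte markers.

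Col19a1, a scarce fibril-associated collagen of developing muscle, was at 3.53 and 4.03 against 1.35 and 1.90 TPM at day 0, 4.99 and 8.06 against 9.88 and 11.9 at day 7, and 8.39 and 8.24 against 8.10 and 6.87 by label at day 21. The knockout libraries were below wild type at day 0 (-1.30 ± 0.25, edgeR adjusted p = 0.00505) and above it at day 7, where the difference did not pass (0.78 ± 0.24, edgeR adjusted p = 0.157). Its change was 0.51 ± 0.24 (edgeR adjusted p = 0.107) in wild type and 2.58 ± 0.26 (edgeR adjusted p = 2.44e-05) in knockout, a difference of 2.07 ± 0.35 (edgeR adjusted p = 0.00682).

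The type IX genes, known from cartilage, were lower at day 7 than at day 0 in wild type. Col9a1 was at 1.28 and 0.984 against 0.523 and 0.446 TPM at day 0, 0.269 and 0.0643 against 0.566 and 0.571 at day 7, and 0.321 and 0.761 against 0.184 and 0.321 at day 21 by label. Its interaction was 3.06 ± 0.89 (edgeR adjusted p = 0.0468), from at most 97 counts in a library. Col9a2 was at 4.27 and 5.66 against 5.80 and 4.08 TPM at day 0, 0.455 and 0.609 against 1.03 and 0.990 at day 7, and 3.83 and 7.08 against 9.19 and 7.37 at day 21. It fell by 3.25 in wild type and by 1.93 in knockout on the log2 scale, and the difference (1.32 ± 0.34, edgeR adjusted p = 0.0311) was lost with limma on log2(TPM + 1). Col9a3 was at 11.99 and 9.04 against 15.9 and 19.1 TPM at day 0 (0.57 ± 0.16, edgeR adjusted p = 0.0232), 4.97 and 4.53 against 3.11 and 4.18 at day 7, and 6.60 and 7.62 against 6.50 and 7.79 at day 21. Here the knockout libraries were above wild type at day 0 and below at day 7, with an interaction of -0.85 ± 0.23 (edgeR adjusted p = 0.0364). The exons of Col9a3 share 234 bases with Tcfl5 on the other strand.

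The transmembrane collagens, which stay anchored in the cell that makes them, were lower in knockout at day 0 in 3 of 4 cases, against 12.6% of all genes. Col13a1, needed at the neuromuscular junction, was at 6.17 and 6.18 against 3.40 and 3.65 TPM at day 0 (-0.95 ± 0.15, edgeR adjusted p = 0.00178), 6.32 and 6.97 against 4.81 and 5.96 at day 7, and 14.9 and 13.5 against 17.7 and 20.7 by label at day 21. It rose to day 7 in knockout (0.65 ± 0.15, edgeR adjusted p = 0.00421) and did not pass in wild type (-0.065 ± 0.14, edgeR adjusted p = 0.742), a difference (0.72 ± 0.20, edgeR adjusted p = 0.0437) that was lost with limma on log2(TPM + 1). All 4 day 21 libraries were above every earlier library. Col23a1 was at 5.94 and 6.93 against 4.10 and 3.48 TPM at day 0 (-0.68 ± 0.16, edgeR adjusted p = 0.0124), 2.61 and 3.38 against 4.32 and 4.50 at day 7, and 4.20 and 4.62 against 6.22 and 7.04 at day 21. It fell by 1.20 on the log2 scale to day 7 in wild type, its change in knockout was -0.078 ± 0.16 (edgeR adjusted p = 0.728), and the difference was 1.12 ± 0.23 (edgeR adjusted p = 0.0144).

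Col17a1, a collagen that anchors skin cells, was at 2.78 and 1.34 against 0.579 and 0.575 TPM at day 0 (-1.88 ± 0.44, edgeR adjusted p = 0.0118), 1.55 and 1.70 against 1.74 and 1.11 at day 7, and 1.86 and 5.63 against 3.61 and 3.65 at day 21. The same wild-type day 0 libraries held the epidermal markers that were near 0 in knockout, and their part in the Col17a1 value was not tested. Col25a1 ranged from 0.0378 to 0.752 TPM and rose to day 7 in wild type (2.44 ± 0.59, edgeR adjusted p = 0.00650) and knockout (3.44 ± 0.64, edgeR adjusted p = 0.00140), from at most 102 counts in a library.

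Of the other collagens, Col8a1, a short-chain collagen of vessels and repairing tissue, had a rise to day 7 second to that of Col3a1 among the genes above 100 TPM there in wild type. It was at 16.5 and 15.6 against 12.2 and 11.9 TPM at day 0 (-0.47 ± 0.13, edgeR adjusted p = 0.0225), 156 and 174 against 115 and 101 at day 7, and 49.8 and 49.0 against 68.3 and 56.5 by label at day 21. The knockout libraries were below wild type on both days, at day 7 without passing (-0.57 ± 0.13, edgeR adjusted p = 0.0541), and the rises were 3.13 ± 0.14 and 3.03 ± 0.14. Its partner Col8a2 did not follow it: it was at 41.1 and 43.1 against 28.6 and 30.4 TPM at day 0, 24.1 and 27.4 against 29.2 and 33.8 at day 7, and 80.4 and 46.3 against 84.4 and 88.1 at day 21. Col8a2 fell by 0.91 on the log2 scale to day 7 in wild type (edgeR adjusted p = 0.0109) and its change in knockout was -0.034 ± 0.23 (edgeR adjusted p = 0.925).

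Col26a1 rose to day 7 in both genotypes. Its CPM were 12.8 and 11.3 against 3.25 and 4.42 at day 0, 46.9 and 42.5 against 77.0 and 65.8 at day 7, and 14.6 and 17.8 against 13.7 and 22.0 at day 21 by label. Its TPM at day 0 were 8.01 and 6.32 against 2.18 and 5.60, with a knockout library close to wild type, and at day 7 28.5 and 25.4 against 47.1 and 38.0. On counts it was lower in knockout at day 0 (-1.66 ± 0.24, edgeR adjusted p = 0.00137) and rose by 1.89 ± 0.22 in wild type and 4.22 ± 0.25 in knockout, a difference of 2.33 ± 0.32 (edgeR adjusted p = 0.00329). Both of these genotype calls were lost with limma on log2(TPM + 1). Col28a1, found around peripheral nerve, ranged from 0.785 to 11.0 TPM and fell to day 7 in wild type (-1.87 ± 0.38, edgeR adjusted p = 0.00281) and knockout (-2.61 ± 0.39, edgeR adjusted p = 0.000419), as all 5 glial markers did. Col7a1, the anchoring collagen of skin, ranged from 0.0199 to 1.76 TPM and passed no test. Col10a1, a marker of growth plate cartilage, was at or below 0.376 TPM, with at most 32 counts and 0 in both wild-type day 0 libraries.

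Genes that fold, modify, secrete and crosslink collagen were tested as a list. To day 7, of 28 such genes, 16 rose and 4 fell in wild type (71.4% called, against 47.0% of all genes), and 19 rose and 4 fell in knockout (82.1% against 46.9%). Of the 8 fibrillar collagen genes 3 rose and 3 fell in wild type. In wild type Plod2, which hydroxylates lysines for crosslinks, rose by 2.70 ± 0.14 (edgeR adjusted p = 7.77e-07), P4ha3, a prolyl hydroxylase subunit, by 4.51 ± 0.30 (edgeR adjusted p = 3.29e-06), and Bmp1, which trims procollagen, by 1.18 ± 0.084 (edgeR adjusted p = 4.27e-06). At day 0, 6 of the 28 were lower in knockout and 1 higher. These 25.0% were near the 27.4% of all genes. The collagen chaperone Serpinh1 was at -1.10 ± 0.16 (edgeR adjusted p = 0.00143), the crosslinking enzyme Loxl2 at -0.88 ± 0.16 (edgeR adjusted p = 0.00366) and Creb3l1, a transcription factor for collagen secretion, at -0.87 ± 0.20 (edgeR adjusted p = 0.0110). The interaction passed for 5 of 28 (17.9% against 13.5%), 3 more positive in knockout and 2 more negative. Over the other settings run, the number called ranged from 10 to 23 to day 7 in wild type, from 15 to 25 in knockout, from 1 to 15 at day 0 and from 0 to 11 for the interaction.

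Partners of the basement membrane were higher in knockout at day 0, on the side of the Col4 genes. Of 11 tested, 9 were higher and none lower (81.8% called, against 27.4% of all genes), with the laminin chains Lama4 at 0.65 ± 0.095 (edgeR adjusted p = 0.00141) and Lamb2 at 1.15 ± 0.21 (edgeR adjusted p = 0.00423), and the proteoglycan Agrn at 1.32 ± 0.23 (edgeR adjusted p = 0.00309). On the same libraries 4 of 7 mural markers were higher, and their part in this list's values was not tested. To day 7, 5 rose and 1 fell in wild type (54.5% against 47.0%), among the risen Nid1 (1.86 ± 0.10, edgeR adjusted p = 1.08e-06), Lamb1 (1.81 ± 0.14, edgeR adjusted p = 5.95e-06) and Pxdn, which crosslinks type IV collagen (2.29 ± 0.23, edgeR adjusted p = 4.41e-05). In knockout 3 rose and 5 fell (72.7% against 46.9%). The interaction was negative and passed for 7 of 11 (63.6% against 13.5%), such as Lama4 (-0.83 ± 0.13, edgeR adjusted p = 0.00572) and Nid1 (-0.82 ± 0.14, edgeR adjusted p = 0.00756), and Nid1 was the only gene of the 4 partner lists to pass between genotypes at day 7 (-0.49 ± 0.10, edgeR adjusted p = 0.0437). The day 0 count ranged from 2 to 11 over the other settings, the interaction count from 2 to 9, and the day 7 counts from 4 to 8 in wild type and 5 to 9 in knockout.

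Of 13 collagen receptors, 4 were higher and 3 lower in knockout at day 0 (53.8% called, against 27.4% of all genes). The integrin chain Itgb1 was at 0.59 ± 0.083 (edgeR adjusted p = 0.00121), Itga2 at 0.60 ± 0.15 (edgeR adjusted p = 0.0144), and Cspg4, a receptor for type VI collagen and itself a mural marker, at 1.32 ± 0.26 (edgeR adjusted p = 0.00639). The 3 lower ones, named after their values were seen, were the calcitonin receptor Calcr (-0.89 ± 0.23, edgeR adjusted p = 0.0181), Antxr1 (-0.50 ± 0.14, edgeR adjusted p = 0.0278) and Ddr1 (-0.42 ± 0.13, edgeR adjusted p = 0.0349). Calcr is itself 1 of the 10 muscle stem cell markers, of which 7 were lower in knockout at day 0. To day 7, 7 rose and 3 fell in wild type (76.9% against 47.0%), and 4 rose and 3 fell in knockout (53.8% against 46.9%); Itga1, Itga2 and Cspg4 fell in wild type (by 0.81, by 0.88 and by 1.98 on the log2 scale). Over the other settings the receptors called numbered 1 to 9 at day 0, 2 to 11 to day 7 in wild type and 4 to 10 in knockout. Of 11 partners of fibrils, Sparc (-1.04 ± 0.15, edgeR adjusted p = 0.00137) and Bgn (-0.66 ± 0.13, edgeR adjusted p = 0.00463) were lower and Thbs1 (1.36 ± 0.20, edgeR adjusted p = 0.00140) higher in knockout at day 0, and these 27.3% were at the share over all genes. In each genotype 5 rose and 3 fell to day 7 (72.7% called), with the matricellular protein Postn at 2.98 ± 0.15 (edgeR adjusted p = 7.77e-07), Bgn at 1.58 ± 0.13 (edgeR adjusted p = 8.30e-06) and tenascin Tnxb at -3.16 ± 0.20 (edgeR adjusted p = 1.96e-06) in wild type. Over the other settings the fibril partners called numbered 2 to 5 at day 0, 6 to 10 to day 7 in wild type and 7 to 11 in knockout. From day 7 to day 21 the counts (higher, then lower) were 10 and 12 of 28 for synthesis, 7 and 1 of 11 for basement membrane partners, 8 and 2 of 13 for receptors, and 5 and 3 of 11 for fibril partners, 72.7% to 78.6% of each list against 56.8% of all genes. Over the other settings these totals ran from 9 to 23, 5 to 9, 3 to 11 and 8 to 10, in the same order.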

How the data were processed

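RNA of 12 muscle stem cell libraries in 6 groups was analysed. The authors deposited estimated counts and TPM per gene; kallisto 0.46.1 and the builds mm10 and GRCm38.p6 are named in the submitters' processing notes, with no role given. Estimated counts as deposited were rounded to whole numbers. A batch-corrected table of log2 values, deposited by the authors with the batch unnamed, was used only as an alternative. No column of per-sample values was unused (0).

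Counts were filtered with filterByExpr (15890 of 30154 genes), scaled by TMM and tested in edgeR 4.0.16 (R 4.3.3) by the quasi-likelihood F test on all 12 libraries with 1 mean per group, which leaves 6 residual degrees of freedom. Adjusted p-values are Benjamini-Hochberg over all genes tested, called under 0.05, and fold changes are log2 ± SE. The code was tested on simulated data. Alternatives were limma 3.58.1 on log2(TPM + 1) and log2(TPM + 0.1), DESeq2 1.42.0, other filters, a fold minimum, a replicate block, fewer groups and each library left out.

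Values in every library are given for members with a mean of at least 10 TPM or called in a genotype or interaction test, other members by range, and at most 3 called genes per other list. Members and lists were chosen with earlier results of these data known. Gene positions are from the GENCODE annotation of GRCm38. Depth of 28396862 to 38950614 counts per library limits scarce genes. Sequences of proteins and a genotype assignment of the 2 contradicted day 21 libraries were not used here.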

Additional observations from a re-analysis of the deposited data

Results flagged for a closer look

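For 14 of 44 collagen genes the change from day 0 to day 7 differed between knockout and wild type by the interaction test of edgeR. Over all genes tested 13.5% passed (6.08% more positive in knockout, 7.39% more negative). The test shares its day 0 libraries with the day 0 comparison of genotypes, and at day 7 only Col27a1 was called between genotypes. The values here are the knockout change minus the wild-type change on the log2 scale, with 2 libraries in each of the 4 groups. The change was more positive in knockout for Col9a1 (3.06, adjusted p = 0.0468), Col26a1 (2.33, adjusted p = 0.00329), Col19a1 (2.07, adjusted p = 0.00682), Col1a1 (1.83, adjusted p = 0.0094), Col14a1 (1.73, adjusted p = 0.0036) and Col2a1 (1.64, adjusted p = 0.0145). It was also more positive for Col9a2 (1.32, adjusted p = 0.0311), Col11a2 (1.15, adjusted p = 0.0408), Col23a1 (1.12, adjusted p = 0.0144), Col6a2 (0.72, adjusted p = 0.0187) and Col13a1 (0.72, adjusted p = 0.0437). It was more negative in knockout for Col20a1 (-1.64, adjusted p = 0.0207), Col5a3 (-1.38, adjusted p = 0.0329) and Col9a3 (-0.85, adjusted p = 0.0364). The value of Col9a1 rests on levels between 0.0643 and 1.28 TPM in the day 0 and day 7 libraries. The calls of Col9a2, Col11a2, Col13a1 and Col26a1 were lost with limma on log2(TPM + 1).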

How the results depend on the processing

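Counts of collagen genes called were recomputed under up to 24 other settings. The share of all genes called under each setting is not given here, so these counts are not set against it. Knockout against wild type at day 0 gave 27 genes, 16 with limma on log2(TPM + 1) without a filter, 10 with a minimum size of 1 on the log2 scale, and 8 to 32 with 1 library left out. At day 7 the 1 gene became 9 with DESeq2, 2 without a filter, 3 with at least 10 counts in every library, 0 with limma on log2(TPM + 0.1) and 0 with limma without a filter, 2 on the batch-corrected values, 7 without the 2 contradicted day 21 libraries, 7 from days 0 and 7 alone, and 0 to 5 with 1 library left out. By label at day 21 the 0 genes became 2 with DESeq2, 1 on the batch-corrected values, 8 without the contradicted libraries, and 0 to 8 with 1 library left out. The interaction count of 14 became 9 with limma on log2(TPM + 1), 9 on log2(TPM + 0.1), 7 without a filter, 22 without the contradicted libraries, 22 from days 0 and 7 alone, and 4 to 20 with 1 library left out. Day 21 against day 7 gave 35 genes, 19 with the fold minimum and 31 to 36 with 1 library left out. Day 21 against day 0 (33) ranged from 30 to 37, day 7 against day 0 from 24 to 31 in wild type (31) and from 24 to 28 in knockout (27) with 1 library left out. Of the values for single genes under another setting, 9273 kept their side of the threshold, 483 lost a call and 198 gained one. Direction was compared only where either fit made a call, and 2 such values, of Col7a1 with 1 library left out, reversed. Col7a1 ranged from -1.80 (without the second library labelled wild type at day 21) to 1.23 for day 21 against day 7. Against day 0 it ranged from -1.70 to 1.32.

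With the replicate number as a block the counts were 25 at day 0, 1 at day 7, 0 at day 21, 31 and 26 for day 7 against day 0 in wild type and knockout, 10 for the interaction, and 34 and 33 for day 21 against day 7 and day 0. Deviations of same-numbered libraries correlated at -0.143 to 0.0700 over 15 pairs of groups, 0 of them over 0.1. Such correlations cannot tell whether libraries were paired or shared a batch, because the numbering may differ between groups.

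Depth limits the scarce chains: Col6a4, Col10a1, Col6a5, Col9a1 and Col25a1 had at most 22, 32, 56, 97 and 102 counts in a library. The groups hold 2 libraries each, the markers of other cell types differ between groups, and 10 collagen genes share exonic bases with a gene on the other strand. The cause of the changes with setting was not tested.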
